A study of Mus musculus with 2 samples.

Results

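The vomeronasal receptor genes were described in an H1t chromatin immunoprecipitation (ChIP) library from mouse spermatogenic cells. Members were the protein-coding genes on chromosomes 1 to 19 whose symbols begin with Vmn1r or Vmn2r in GENCODE M21, an annotation of GRCm38 (mm10). They were chosen by symbol and position, with no use of peak values. The rule took 329 of 20807 autosomal coding genes, 208 of the Vmn1r and 121 of the Vmn2r subfamily. Neighbouring members within 500 kb of each other formed 29 groups, of which 22 held at least 2 members and 7 were single genes. Of the 22 clusters, 7 held Vmn1r genes alone, 11 held Vmn2r genes alone and 4 held both. The cells were germ cells from the testes of outbred ICR mice aged 6 weeks, with no genetic change or treatment named in the labels. The antibody was an in-house rabbit polyclonal against H1T, and chromatin was cut with an enzyme. The library was 1 of 2 in the series, and the input library, which had no antibody, was not analysed here. There is no replicate, so no test between samples was made, and the number of animals pooled was not given in the sources used here. A peak list carries no expression values, so markers of germ cells were not checked. ICR reads were placed on mm10, a C57BL/6J assembly.

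H1t is a linker histone of the testis that appears in spermatocytes and persists in spermatids until histones are replaced. Vomeronasal receptors are G protein-coupled receptors of the vomeronasal organ, a chemosensory organ of the nose that reads pheromones and other social cues. Vmn1r receptors couple to Gαi2 in apical sensory neurons and respond mainly to small molecules. Their coding sequence lies in a single exon. Vmn2r receptors couple to Gαo in basal neurons, respond to peptides and proteins, and carry a large extracellular domain encoded over several exons separated by introns. Both subfamilies lie in tandem clusters of recent gene copies, and each sensory neuron expresses a very small subset of them.

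The starts of these genes are shown first because no member had a peak there. Each sequence is the RefSeq promoter on GRCm38.p6, the assembly of mm10, from 250 bases before to 50 after the RefSeq start, written 5′ to 3′ on the gene's strand. CG dinucleotides are in capitals. Vmn1r48 (chr6:90036792-90037091, minus strand) and Vmn2r51 (chr7:10105610-10105909, minus strand) had the nearest peak among members whose RefSeq and GENCODE starts lay within 100 bp. Vmn1r5 (chr6:56970085-56970384, plus strand) and Vmn2r27 (chr6:124231735-124232034, minus strand) had the most peaks in the body under the same restriction, 1 and 7, with ties broken by the nearer peak to the start. Tfap2e (chr4:126736220-126736519, minus strand) encodes the transcription factor of the basal, Vmn2r-expressing neurons. It is shown because it had the highest-scoring start peak of the vomeronasal pathway genes. The midpoint of that peak lay 958 bp from the GENCODE start, outside the printed sequence.
Vmn1r48: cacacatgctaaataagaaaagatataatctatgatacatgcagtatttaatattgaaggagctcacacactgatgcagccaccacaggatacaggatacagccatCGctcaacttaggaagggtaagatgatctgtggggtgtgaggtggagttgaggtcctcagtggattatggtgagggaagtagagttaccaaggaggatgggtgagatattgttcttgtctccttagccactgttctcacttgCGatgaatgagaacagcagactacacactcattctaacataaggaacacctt
Vmn1r5: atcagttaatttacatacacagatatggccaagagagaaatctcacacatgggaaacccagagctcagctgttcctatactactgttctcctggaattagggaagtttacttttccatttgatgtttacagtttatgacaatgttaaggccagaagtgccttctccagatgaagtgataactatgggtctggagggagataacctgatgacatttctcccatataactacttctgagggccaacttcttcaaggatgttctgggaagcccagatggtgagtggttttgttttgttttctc
Vmn2r51: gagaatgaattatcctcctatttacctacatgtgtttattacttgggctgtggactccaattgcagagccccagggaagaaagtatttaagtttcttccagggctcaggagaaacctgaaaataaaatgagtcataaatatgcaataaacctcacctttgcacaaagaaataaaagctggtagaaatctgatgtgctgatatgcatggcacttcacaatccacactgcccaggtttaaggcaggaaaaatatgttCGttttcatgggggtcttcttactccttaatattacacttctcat
Vmn2r27: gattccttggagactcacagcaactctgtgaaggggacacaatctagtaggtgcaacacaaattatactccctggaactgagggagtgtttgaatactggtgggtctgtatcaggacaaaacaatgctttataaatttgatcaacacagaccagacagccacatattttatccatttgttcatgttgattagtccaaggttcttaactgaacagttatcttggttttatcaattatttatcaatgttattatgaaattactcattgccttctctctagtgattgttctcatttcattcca
Tfap2e: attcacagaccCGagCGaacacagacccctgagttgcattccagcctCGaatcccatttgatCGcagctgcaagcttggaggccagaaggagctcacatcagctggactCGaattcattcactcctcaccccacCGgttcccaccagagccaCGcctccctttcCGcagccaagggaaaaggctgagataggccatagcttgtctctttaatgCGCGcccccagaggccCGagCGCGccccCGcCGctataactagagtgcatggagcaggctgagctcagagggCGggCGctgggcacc
The Vmn1r48 promoter held 2 CG, that of Vmn2r51 held 1, and those of Vmn1r5 and Vmn2r27 held 0. The Tfap2e promoter held 17.

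A start peak was a peak whose midpoint lay within 1 kb of the 5′ end of the gene. It was found at 0 of 208 Vmn1r and 0 of 121 Vmn2r starts, against 24.2% of all autosomal coding genes. Among other coding genes between the quartiles of Vmn1r length, 18.7% had a start peak, and among those between the quartiles of Vmn2r length 25.6% did. Of 1837 other coding genes with transcript GC between 37.36% and 40.9%, the quartiles of the members, 14.6% had one. These 1837 include 404 olfactory receptor genes, and without them the share was 18.3%. All olfactory receptor genes (Olfr), another clustered chemosensory family, had 13 of 1128, or 1.15%. When any overlap of 1 bp was counted in place of the midpoint, 2 Vmn1r and 1 Vmn2r starts had a peak. The list holds only peaks with a score of at least 50, so weaker enrichment at these starts was not measured.

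RefSeq promoters were matched for 184 Vmn1r and 114 Vmn2r genes. The median promoter held 1 CG in either subfamily and 15 in other coding genes, and median GC was 36%, 38% and 57.33%. No member had more than 6 CG. Among other coding genes the share with a peak within 1 kb of the RefSeq start was 2.86% at 0 CG and 37.5% at 13 or more. Other coding genes with 3 or fewer CG had such a peak in 4.23%, against 1 of 184 Vmn1r and 0 of 114 Vmn2r genes. These 3308 other coding genes include 866 Olfr genes, and the share without them was not computed. Of all 926 Olfr genes matched, 9 had such a peak. The 1 Vmn1r gene was Vmn1r4, whose RefSeq start lies 32497 bp from the GENCODE start used elsewhere. RefSeq and GENCODE starts were within 100 bp for 58 Vmn1r and 54 Vmn2r genes, so the position of the start depends on the annotation for many members.

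The nearest peaks lay just beyond the window. Vmn2r69 had a peak midpoint 1247 bp upstream of its start, Vmn1r21 one 1327 bp upstream and Vmn1r68 one 1355 bp upstream. Vmn1r84 followed at 1522 bp and Vmn2r118 at 1566 bp, both upstream. The median distance from a start to the nearest peak was 14116 bp in Vmn1r and 10307 bp in Vmn2r genes. It was 9752 bp in other coding genes and 14879 bp in Olfr genes. Within 5 kb of the start a peak was found for 40 Vmn1r (19.23%) and 16 Vmn2r genes (13.22%), with a background of 37.3%. Within 10 kb the counts were 82 (39.42%) and 60 (49.59%), with a background of 50.6%. By 10 kb the Vmn2r share was thus near the background. The Olfr shares were 16.22% within 5 kb and 35.73% within 10 kb.

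**Figure D1:**
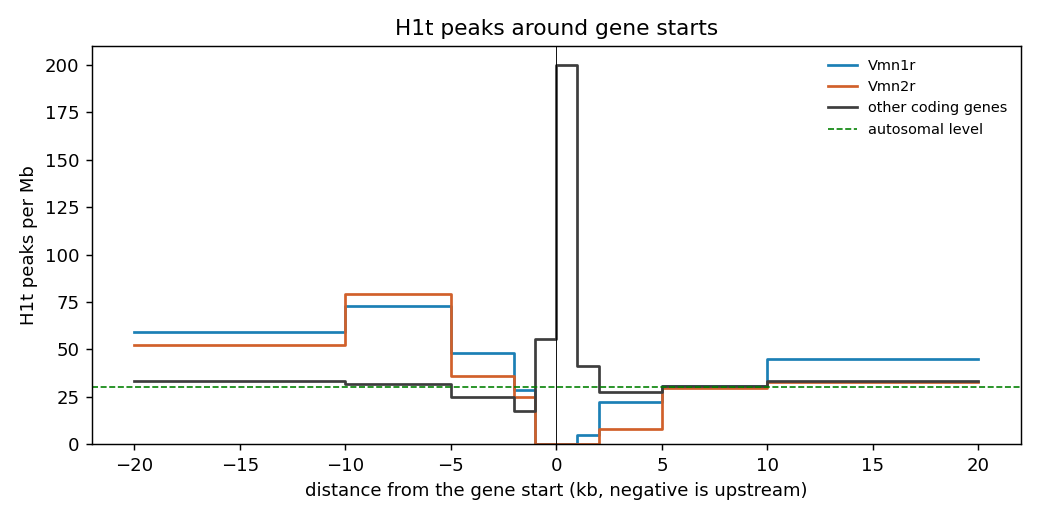
H1t peaks per Mb in windows of distance from gene starts, counted per gene, for Vmn1r, Vmn2r and other coding genes. Both receptor subfamilies are at 0 in the first 1 kb on either side, where other coding genes reach 200.2 downstream, and at 73.08 and 79.34 between 5 and 10 kb upstream.

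The profile around the start differed in shape from that of other coding genes. Other coding genes had 55.47 peaks per Mb in the first 1 kb upstream and 200.2 in the first 1 kb downstream. Vmn1r density rose from 0 to 28.85 at 1 to 2 kb upstream and 73.08 at 5 to 10 kb upstream. Vmn2r density rose from 0 to 24.79 and 79.34 in the same windows, while other coding genes had 32.01 at 5 to 10 kb upstream. Olfr genes had a shape like that of the members. They had 9.75 in the first 1 kb upstream, 19.5 at 1 to 2 kb and 52.13 at 5 to 10 kb upstream. In the first 1 kb downstream they had 1.77. Neighbouring genes share some of these peaks, since each peak was counted once for every gene whose window held it. Downstream, 1 of 208 Vmn1r and 0 of 121 Vmn2r genes had a peak 1 to 2 kb after the start, against 834 of 20478 other coding genes and 3 of 1128 Olfr genes.

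Coding sequence held no peak in either subfamily. Annotated coding sequence summed to 0.1931 Mb in Vmn1r and 0.3142 Mb in Vmn2r genes, and 0 peaks overlapped it even by 1 bp. Coding sequence of other genes was not counted, so this 0 has no background beside it. Exons of all transcripts together, outside the start windows, held 6 peaks in Vmn1r genes and 11 in Vmn2r genes. The densities were 7.97 peaks per Mb (95% counting interval 2.92 to 17.3) and 12.21 (6.09 to 21.8), against 64.55 in exons of other coding genes. Intervals here and below are exact, cover counting error only and treat peaks as independent, which neighbouring peaks need not be. Olfr exons had 7.73 per Mb, and exons of the other coding genes of like transcript GC had 5.96, or 5.18 without olfactory receptor genes. Exon density was thus low in these genes too. An exon peak was present in 6 of 208 Vmn1r and 9 of 121 Vmn2r genes, with a background of 28.7%.

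Of the 17 exon peaks, 15 lay 3′ of the coding sequence, in annotated last exons of 1921 to 19596 bp. The highest score was 156.78, in the last exon of Vmn1r55, which spans 18312 bp. Vmn1r229 had an exon peak of score 119.46, Vmn1r218 one of 112.68 and Vmn2r114 one of 105.24. Vmn2r53 had 2 peaks in its last exon. The other 2 exon peaks lay in exon 3 of Vmn2r60, a stretch of 10463 bp between coding exons.

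**Figure D2:**
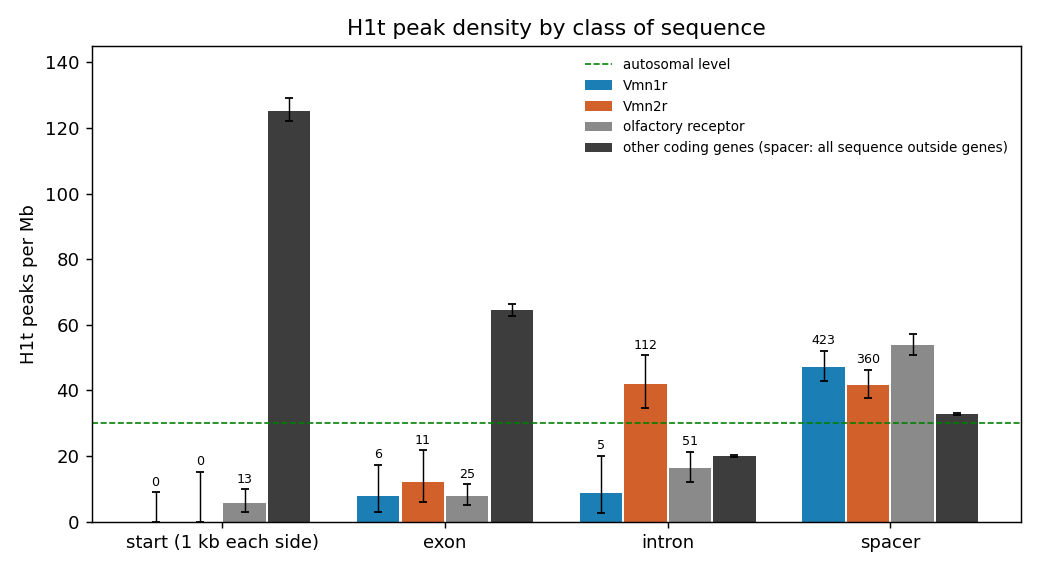
H1t peaks per Mb in starts, exons, introns and spacers of the 2 receptor subfamilies, beside other coding genes and olfactory receptor genes, with exact 95% counting intervals. Starts are at 0 in both subfamilies, and introns are at 42.11 in Vmn2r against 8.6 in Vmn1r.

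Introns separated the subfamilies. Vmn2r introns held 112 peaks in 2.66 Mb, or 42.11 per Mb (34.7 to 50.7), and Vmn1r introns held 5 in 0.581 Mb, or 8.60 per Mb (2.79 to 20.1). Introns of other coding genes had 20.06 peaks per Mb. Vmn2r density was 2.1 times that level (1.73 to 2.53), and Vmn1r density was 0.429 of it (0.139 to 1.0). The ratio of Vmn2r to Vmn1r was 4.9 (2.04 to 15.4). Olfr introns had 16.21 per Mb and introns of other coding genes of like GC had 24.56, both below the Vmn2r interval. Among genes of 2 or more exons, at least 1 intron peak was present in 44 of 121 Vmn2r and 4 of 142 Vmn1r genes, with a background of 34.2%. The share of Vmn2r genes with an intron peak was thus near the background.

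These peaks lay in the longest introns. In Vmn2r genes, introns under 2000 bp had 3.97 peaks per Mb, those of 2000 to 5000 bp had 10.13 and those of 5000 to 10000 bp had 18.58. Introns of 10000 to 20000 bp had 71.61, and longer ones 71.04. Other coding genes had 17.62 per Mb at 5000 to 10000 bp and 22.24 at 10000 to 20000 bp. Olfr introns also rose with length, from 5.50 at 2000 to 5000 bp to 16.65, 19.72 and, from 20000 bp, 84.65. Vmn1r introns had 0 peaks under 5000 bp, 23.69 per Mb at 5000 to 10000 bp and 39.08 at 10000 to 20000 bp, from 2 and 3 peaks, and 0 in the 6 longer ones. Vmn2r genes had 79 introns of at least 10 kb, in 56 genes. Of these 79, 40 held a peak (50.6%), with a background of 35.1%, and together they carried 94 of the 112 intron peaks. Their density was 71.41 per Mb, or 67.54 without Vmn2r7, against 21.86 in other coding genes and 51.03 in the 36 Olfr introns of that length. Vmn1r genes had 12 introns of that length, with 3 peaks.

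**Figure D3:**
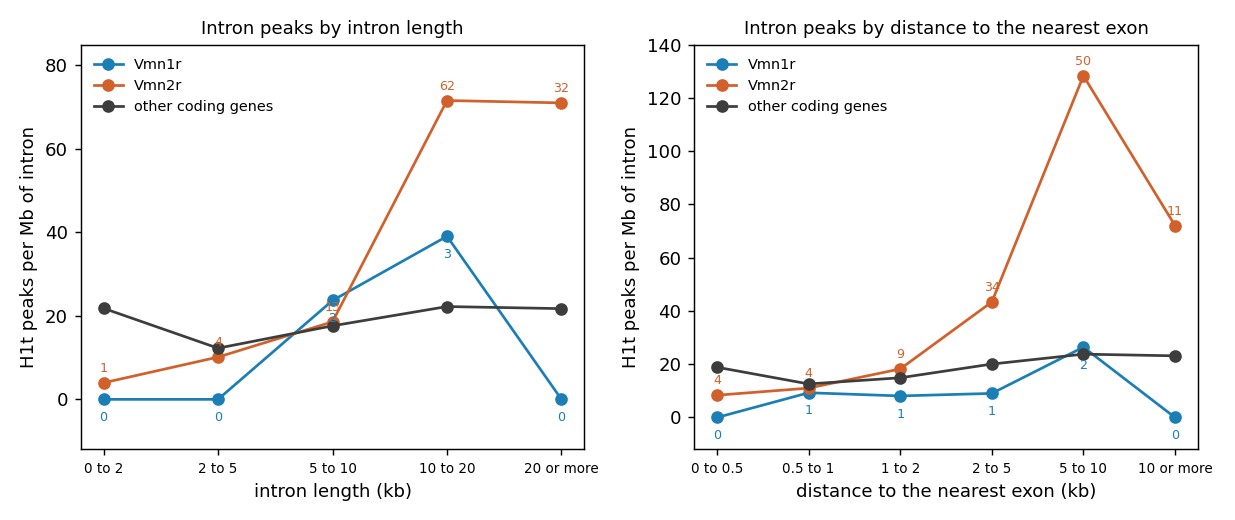
Peaks per Mb of intron by intron length and by distance to the nearest exon, for Vmn2r and other coding genes. Vmn2r introns pass from 18.58 at 5000 to 10000 bp of length to 71.61 at 10000 to 20000 bp, and from 8.36 beside exons to 128.3 at 5000 to 10000 bp from an exon.

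Vmn2r intron peaks were sparse near exons. Density was 8.36 per Mb within 500 bp of an exon, 43.37 at 2000 to 5000 bp and 128.3 at 5000 to 10000 bp, where 50 peaks lay in 23 genes. It was 72.07 beyond 10000 bp, from 11 peaks. Sequence at least 5000 bp from any exon of the gene exists only in introns of at least 10 kb. The trends with distance and with intron length thus overlap and were not separated. Other coding introns ranged from 12.59 to 23.78 over the same classes. Olfr introns were sparse near exons as well, with 1.198 per Mb within 500 bp, 28.31 at 2000 to 5000 bp, 72.48 at 5000 to 10000 bp and 86.63 beyond. The median Vmn2r intron peak lay 5261 bp from the nearest exon, 95 of 112 lay at least 2000 bp away and 8 lay within 1 kb. No intron peak lay nearer than 3991 bp to a Vmn2r start, the one in Vmn2r95. In the 86 Vmn2r genes with 6 exons, introns 1 to 5 had 30.13, 18.4, 52.33, 28.25 and 31.68 peaks per Mb, from 3 to 19 peaks each.

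The Vmn2r genes with most peaks in the body were long members with long introns. Vmn2r7 (ENSMUSG00000062200.14, chr3:64685044-64844765, minus strand) spans 159722 bp and had 15 peaks, all in introns, with a highest score of 262.02. It belongs to the family C receptors, which are expressed broadly among basal neurons together with a second receptor. Its intron 1 of 73844 bp held 7 peaks and its intron 2 of 44729 bp held 4. Vmn2r57 had 7 intron peaks, 5 of them in its intron 1 of 19609 bp. Vmn2r27 also had 7, with 6 in its intron 3 of 22953 bp. Vmn2r56 had 6, in groups of 3 in introns 2 and 6. Vmn2r18, Vmn2r58, Vmn2r118, Vmn2r53 and Vmn2r91 had 5 each, and in Vmn2r58 and Vmn2r91 all 5 lay in 1 intron. The highest score in a member was 280.55, in intron 5 of Vmn2r117.

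In all, 49 of 121 Vmn2r genes had a peak in the body (40.5%, exact binomial interval 31.67 to 49.8), of which 25 had 1, 9 had 2 and 15 had at least 3. The background was 48.9% of all autosomal coding genes and 52.7% of other genes between the quartiles of Vmn2r length. Of 208 Vmn1r genes, 10 had one (4.81%, 2.33 to 8.66), against 27.8% of other genes between the quartiles of Vmn1r length. Olfr genes had 4.43%. Among the Vmn1r genes, 66 had a single exon, and 0 of them held a peak, as did 0 of 116 single-exon Olfr genes. The background among autosomal coding genes of 1 exon was 25.7%, not matched for length. Many of the 66 single-exon Vmn1r genes span only about 924 bp. Vmn1r86 had 2 peaks in its intron 1 of 14927 bp, with scores of 146.33 and 83.34. Vmn1r5 had 1, of score 236.69, the highest in a Vmn1r gene, 6127 bp from the nearest exon. Some of the longest members held none, among them Vmn1r68 (51088 bp), Vmn2r102 (49206 bp), Vmn2r79 (48827 bp) and Vmn2r59 (47740 bp).

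Spacers are the stretches between neighbouring members of the same subfamily within a cluster, outside member bodies and start windows. Vmn1r spacers held 423 peaks in 8.95 Mb, or 47.28 per Mb (42.9 to 52.0), and Vmn2r spacers held 360 in 8.62 Mb, or 41.76 (37.6 to 46.3). Autosomal sequence outside all annotated genes had 32.74, so the ratios were 1.44 (1.31 to 1.59) and 1.28 (1.15 to 1.41). The ratio of Vmn2r to Vmn1r spacers was 0.883, with an interval of 0.765 to 1.02 that includes 1. Olfr spacers had 53.9 per Mb, and the ratios to them were 0.877 (0.783 to 0.981) for Vmn1r and 0.775 (0.687 to 0.872) for Vmn2r. The Vmn1r comparisons turned on the chromosome 7 cluster of 65 genes. Without it Vmn1r spacers had 66.4 per Mb, which was 1.23 times Olfr spacers (1.09 to 1.39), and the ratio of Vmn2r to Vmn1r spacers was 0.629 (0.541 to 0.731). Introns of all Vmn2r genes, single ones included, and Vmn2r spacers were at like densities, with a ratio of 1.01 (0.808 to 1.25). For Vmn1r, counted in the same way, the intron density was 0.182 of the spacer density (0.0588 to 0.428).

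Spacer peaks were densest at 5000 to 10000 bp from the nearest member. Vmn1r spacers had 16.4 peaks per Mb in the first 1 kb beside a member, 77.02 at 5000 to 10000 bp and 33.36 beyond 20000 bp. Vmn2r spacers had 66.49 and 35.39 in the last 2 of these classes. Beside a member they had 60.61, from only 6 peaks. Most spacer peaks lay in no annotated gene, 89.1% in Vmn1r and 85% in Vmn2r clusters. Most spacer sequence did so too, 7.54 of 8.95 Mb in Vmn1r and 6.42 of 8.62 Mb in Vmn2r. Such sequence had 49.97 and 47.66 peaks per Mb, against 47.28 and 41.76 over all spacer sequence. The 10 highest-scoring peaks of the cluster spans all lay between members, outside their bodies. Of all 953 peaks of the spans, 819 lay outside member bodies. The highest, with a score of 639.96, lay 3402 bp from Vmn1r2 on chromosome 4. The next lay near Vmn1r226 (623.92), Vmn1r48 (594.61) and Vmn2r29 (541.75). The peak beside Vmn1r48, at chr6:90033349-90035931, ended just short of the 3′ end of the gene at 90035933, and its midpoint was 2201 bp from the start whose sequence is printed above. Typical scores did not stand apart, with a median of 76.54 in cluster spans and 73.82 over the autosomes.

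**Figure D4:**
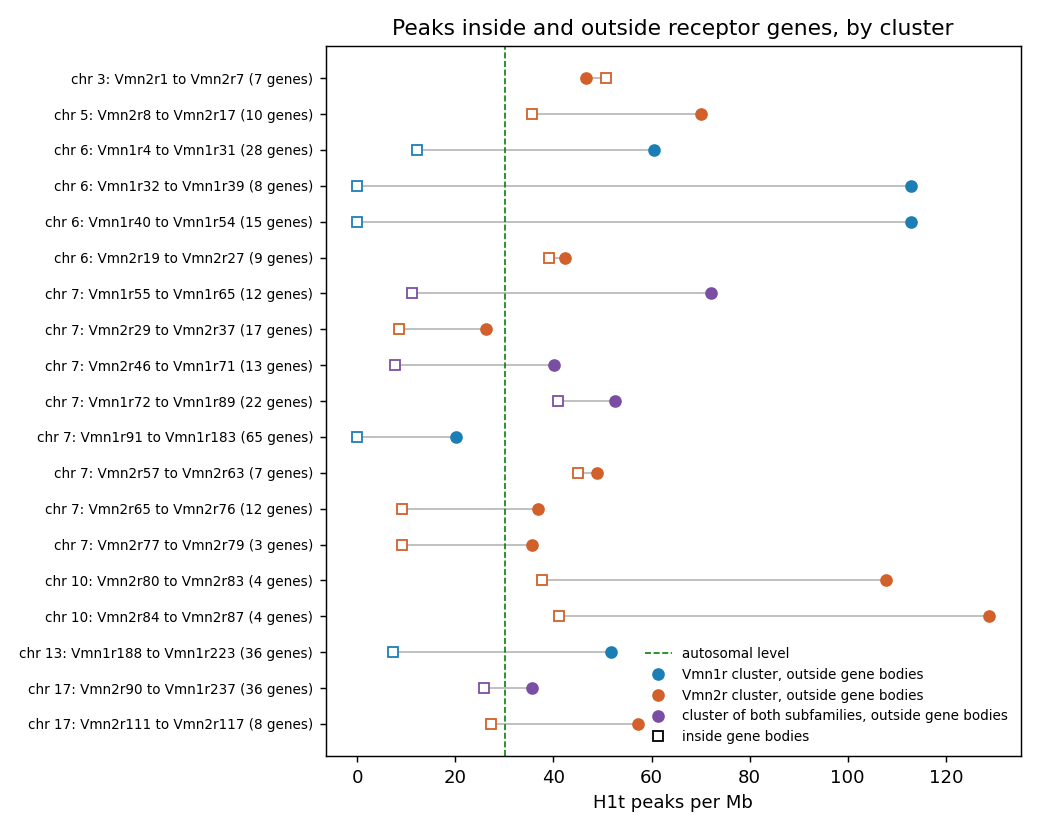
H1t peaks per Mb inside and outside member bodies for each cluster of at least 3 members, with the autosomal level of 30.15. Densities outside bodies run from 20.06 for the Vmn1r91 to Vmn1r183 cluster to 128.8 for the Vmn2r84 to Vmn2r87 cluster.

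Cluster spans together held 953 peaks in 23.98 Mb, or 39.74 per Mb, against 30.15 over the analysed autosomes. Of the 22 clusters of at least 2 members, 18 lay above the autosomal level, and 42.1% of 1 Mb bins of the autosomes did so. Among the 19 clusters of at least 3 members the median was 48.48 per Mb and 15 lay above that level. Above 2 times the level lay 5 of the 19, against 2.8% of bins, and clusters shorter than a bin vary more by counting. The densest of the 19 were Vmn1r32 to Vmn1r39 on chromosome 6 with 89.0 (56.4 to 134.0) and Vmn1r40 to Vmn1r54, also on chromosome 6, with 81.61 (59.7 to 109.0). All 23 peaks of the first and all 46 of the second lay outside member bodies. Those bodies made up 0.0549 of 0.258 Mb in the first and 0.1561 of 0.564 Mb in the second. Clusters of Vmn2r80 to Vmn2r83 and Vmn2r84 to Vmn2r87, on chromosome 10, followed with 75.4 and 75.33.

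The sparsest cluster was also the largest. Vmn1r91 to Vmn1r183 on chromosome 7 holds 65 Vmn1r genes in 3.964 Mb and had 76 peaks, or 19.17 per Mb (15.1 to 24.0). Member bodies held 0 of them but made up only 0.1751 Mb of this span. Vmn2r29 to Vmn2r37, also on chromosome 7, with 17 Vmn2r genes, had 23.09 (16.9 to 30.8). Peaks were denser outside member bodies than inside in 18 of the 19 clusters. The exception was Vmn2r1 to Vmn2r7 on chromosome 3, with 50.76 per Mb inside and 46.69 outside, where 15 of the 17 body peaks were those of Vmn2r7. Bodies of other coding genes had 27.45 per Mb, against 32.74 in autosomal sequence outside genes. Olfr bodies had 10.37, against 53.9 in Olfr spacers. All Vmn1r bodies together had 7.145, or 0.26 of other coding bodies (0.13 to 0.466). All Vmn2r bodies had 33.39, or 1.22 times other coding bodies (1.01 to 1.45). Vmn2r intron density by cluster, among clusters with at least 3 Vmn2r genes, ran from 11.14 in Vmn2r29 to Vmn2r37 to 106.6 in Vmn2r53 to Vmn2r56. Leaving out each cluster in turn gave 39.26 to 45.6 for the subfamily.

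**Figure D5:**
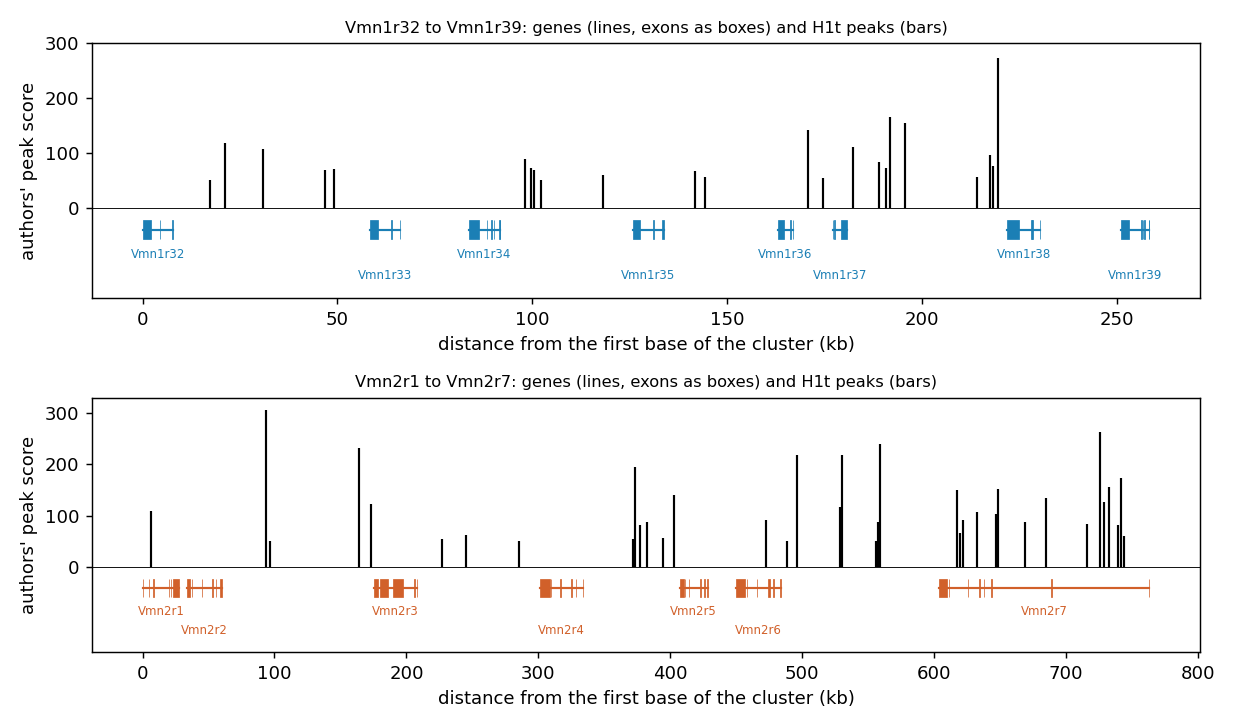
Members, with exons and introns, and H1t peaks along the Vmn1r32 to Vmn1r39 cluster and the Vmn2r1 to Vmn2r7 cluster, as distance from the first base of each. All 23 peaks of the Vmn1r cluster lie outside member bodies, and 17 of the 37 peaks of the Vmn2r cluster lie inside them, 15 in Vmn2r7. Bodies make up 0.0549 of 0.258 Mb and 0.3349 of 0.763 Mb.

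Copies of these genes resemble each other, and the treatment of reads that match several places was not given in the sources used here. As a measure of this, the share of 50-base words of a gene's transcripts that also occur in transcripts of another gene was counted. The median share was 11.76% in Vmn1r, 16.95% in Vmn2r and 0.6% in other coding genes. The 10 Vmn1r genes with a body peak were all among the 99 with a share under 10%, against 0 of 52 at 10% to under 50% and 0 of 57 at 50% or more. Median gene length fell over the same classes, from 9381 bp to 6504 bp and 924 bp. Vmn2r intron density over the same classes was 43.87, 42.54 and 38.92 per Mb. The last value rested on Vmn2r7 and was 21.21, from 11 peaks, without it. The share of Vmn2r genes with a body peak was 42.9%, 46.6% and 25% in these classes. The clusters with the highest median shares, Vmn1r91 to Vmn1r183 (89.5%) and Vmn2r29 to Vmn2r37 (79.5%), were the 2 with the lowest peak densities among clusters of at least 3 members. The 2-member cluster of Vmn1r2 and Vmn1r3, with a median share of 72.0%, had the highest density of any cluster. It was 166.3 per Mb, from 3 peaks. The part of sequence sharing in these densities was not tested, and transcripts say nothing of repeats in introns and spacers.

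Some genes that work with the receptors in the vomeronasal organ had start peaks. Of 40 such genes taken as a list, 8 had a start peak (20%) and 20 a body peak (50%), both near the backgrounds of 24.2% and 48.9%. All 8 were among the 26 genes of signalling, transport and wiring. They were Gnao1, the Gαo subunit that Vmn2r receptors use (score 131.73), Kcnn3, a calcium-activated potassium channel (159.64), Tfap2e (212.59), the homeobox genes Lhx2 (77.74) and Emx2 (64.29), the adhesion gene Kirrel3 (56.26), and the guidance genes Sema3f (62.02) and Nrp2 (144.62). Gnai2, the subunit used by Vmn1r receptors, had 4 body peaks and 0 at its start, and Trpc2, the transduction channel, had 2 and 0. The receptor-like and clustered members of the list had no start peak. These were 9 H2-M genes, nonclassical MHC molecules of Vmn2r neurons, with 0 body peaks, and 5 formyl peptide receptor genes, of which Fpr3 alone had body peaks, 2 in number.

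Of 98 other coding genes inside the cluster spans, 3 had a start peak (3.06%) and 24 a body peak (24.5%), against the same backgrounds of 24.2% and 48.9%. Many of the 98 resemble the receptors in name or length. In the chromosome 7 cluster of 65 Vmn1r genes, 35 carry only Gm names, with a median length of 924 bp, and 0 of them had a start or body peak. A further 9 are V1r or Fpr genes, with 0 start peaks. Among the remaining 54, 3 had a start peak (5.56%) and 23 a body peak. Whether the low start share belongs to the receptor genes or to the clusters as regions was not tested.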

How the data were processed

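The H1t ChIP library of 6-week-old ICR mice was analysed as the authors' deposited peak list, which holds 76546 peaks by position and name. Each has a score that the authors deposited with no stated definition. It is at least 50 and was used only to rank, filter or describe peaks of this list. Bowtie 1.1.2 and mm10 are named per the submitters' processing notes. How peaks were called, against which control, and how multiply matching reads were handled is not given in the sources used here. Read depth is unknown, and the input library was not analysed here.

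Positions were compared with GENCODE M21. The 72438 peaks on chromosomes 1 to 19 were placed by midpoint into the first matching class among start (within 1 kb of the gene's 5′ end), exon of any transcript, intron and spacer. Densities are per Mb of sequence. Autosomal sequence ran from the first to the last peak or gene of each chromosome, without stretches of at least 500 kb holding neither, which left 2402.9 Mb. Intervals are exact 95% Poisson intervals for densities, exact conditional binomial intervals for ratios and Clopper-Pearson intervals for shares of genes. The counting of peaks was tested on simulated peaks of known density in Vmn2r exons and in introns and spacers of both subfamilies. Start windows and the 95% intervals were not tested in this way. Promoters came from a RefSeq table of GRCm38.p6. GC content and shared words came from GENCODE transcript sequences. No genome sequence was used, so peak and intron sequences were not examined.

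The members, lists and comparisons were chosen with earlier results of these data known. The naming rule took, for each subfamily, the 10 members with most body peaks, the 5 with the highest body score, those with an exon or start peak, the 5 with the nearest peak to the start and the 5 longest without a body peak. It also took the end members of the 5 densest and 5 sparsest clusters, the 10 highest-scoring peaks and a list of 40 genes of vomeronasal function, and the text prints a selection. Software was Python 3.11.15 with scipy 1.17.1, numpy 2.4.6, matplotlib 3.10.9 and pandas 2.3.3.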

Additional observations from a re-analysis of the deposited data

How the results depend on the processing

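The 11 counts and ratios were recomputed under those of 12 settings that apply to each, 10 planned and 2 added after the data were seen. Of the 60 values this gave, 47 stayed within the counting interval or within 1.5 times the count. With only peaks at or above the median score, which leaves fewer peaks, the genes with a body peak numbered 5 in Vmn1r and 31 in Vmn2r. With any overlap of 1 bp in place of the midpoint, starts with a peak numbered 2 in Vmn1r and 1 in Vmn2r, and the Vmn2r intron ratio was 1.7. With a window of 2 kb they numbered 7 and 3, and with the start of any transcript 1 in Vmn1r. Against Olfr genes the ratios were 2.6 for Vmn2r introns, 1.58 for Vmn2r exons and 1.03 for Vmn1r exons. Without sequence of other genes the Vmn2r spacer ratio was 1.46. Without the chromosome 7 cluster of 65 genes the Vmn1r spacer ratio was 2.03, an alternative chosen after seeing the data, as was leaving out Vmn2r7, which gave 1.93 for Vmn2r introns. No paired analysis was possible because only 1 library was analysed. A single library measures no variation between animals or preparations, and with unknown depth an absent peak is not an absence of H1t.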

Other observations

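Vomeronasal receptor pseudogenes, annotated as such and outside the members, had no peak within 1 kb of a start. Other pseudogenes were not counted, so no background share can be given. On the autosomes 118 Vmn1r pseudogenes held 4 peaks in the body, in 3 genes, or 27.98 per Mb, and 113 Vmn2r pseudogenes held 42 peaks in 18 genes, or 35.83 per Mb. Their median lengths were 864.5 bp and 3124 bp. The autosomal level was 30.15 peaks per Mb.

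The receptor genes of the X chromosome fall outside the members. Vmn2r121 held 0 peaks and had its nearest peak 24489 bp from the start. Vmn1r239-ps, annotated as coding, held 0 peaks and had its nearest peak 5973 bp away.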
